A study of Mus musculus with 12 samples.

Results

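Collagen genes were described in RNA of Schwann cells sorted from the sciatic nerve of mice at postnatal day 5. The members are the genes of the count table that the mouse annotation lists as protein-coding under a symbol made of Col, a number, the letter a and a number. This rule found 44 genes among the 25700 listed, and all 44 passed the expression filter that left 18597 genes for testing. The rule used no measured value.

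The mice carried P0Cre-/+, ReYFP Tg/+ and βAct-DsRed Tg/+ on a C57bl/6J background. Cre was driven by a promoter of the Schwann cell lineage, so that eYFP marked these cells, while DsRed marked every cell. Cells with high eYFP were sorted by side scatter (SSC-A), a measure of granularity, into 3 gates. The mSC gate took high side scatter and was enriched in myelinating cells, the nmSC gate took low side scatter and was enriched in not-myelinating cells, and the allSC gate took both. Each gate gave 4 libraries, numbered 1 to 4 by subject, and each library held cells of 1 mouse. The labels do not say whether a subject number marks the same mouse in all gates. Since the gates enrich and do not isolate a cell state, every value is an average over a mixture. In such bulk libraries, fewer cells that express a gene and less RNA per cell cannot be told apart.

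Collagens are secreted or membrane-bound proteins whose chains wind in groups of 3 into a triple helix. Fibrillar collagens assemble into the fibrils that surround nerve fibres. Type IV collagen forms the network of the basement membrane, which every Schwann cell lays around itself and its axons. Other families bridge these structures, sit in the cell membrane or release active fragments. Schwann cells need an assembled basement membrane to ensheathe axons and to form myelin, and in culture they are known to secrete types IV and V.

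Library totals ran from 8180927 to 16918122 counts, and a count of 3, taken here as the floor of detection, corresponded to 0.177 to 0.367 CPM, the count scaled to a common library size. Levels are given as CPM after TMM scaling, and genes are compared with each other only as CPM per kilobase of exon. The gates were set by side scatter, and marker genes used in the study differed between them. Mbp, a myelin gene, had means of 5647 CPM in nmSC, 26733 in allSC and 51943 in mSC, while Mki67, a marker of dividing cells, had 227, 114 and 19.95. Library 4 of the mSC gate stood apart. It was the lowest mSC library for 19 of the 25 collagens given by library below, and results that turn on it are given with and without it. Of the 12 markers fixed for fibroblast-like cells of the nerve, 8 were tested, 1 was higher in mSC (Slc2a1) and 1 lower (Itgb4, an integrin chain that Schwann cells also make). The other 10, among them Pdgfra, Dcn and Lum, summed to 18.3 to 24 CPM in nmSC, 17.3 to 28.6 in allSC and 16.4 to 48.7 in mSC, or 16.4 to 18.9 without mSC library 4. Pdgfra was at 2.35 CPM in nmSC and 2.34 in mSC, Sox9 at 0.294 and 0.203, and Clec3b at 0.158 and 0.120. The 5 pericyte and smooth muscle markers summed to 51.4 to 89.0 CPM in nmSC and 66.8 to 178 in mSC, of which Pdgfrb rose and Myh11 fell in mSC. The 5 endothelial markers summed to 6.39 to 12.6 CPM in nmSC and 19.6 to 28.5 in mSC (Kdr higher, Pecam1 lower in mSC), and the 4 immune markers to 20.7 to 28.5 and 14.7 to 22.6 (Cd68 lower in mSC). The part of these cells in the collagen results was not tested further.

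The collagen profile of the mSC and nmSC gates differed in both directions. In mSC, 11 of the 44 genes were higher and 21 were lower at an adjusted p under 0.05 (quasi-likelihood test of edgeR, Benjamini-Hochberg over all genes tested), and 12 were not called. Among all genes tested, 20.4% were higher and 20.1% were lower in mSC. The share of collagens called higher was thus near the background, and the share called lower was above it. The median log2 fold change was -0.69 over the collagens and -0.16 over all genes, and the median size of the change without its sign was 1.06 against 0.57. Every mSC library lay above every nmSC library for 8 collagens and below for 20, where these patterns held for 16.8% and 17.4% of all genes. Library scaling moved the median of all genes to -0.10 with size factors of DESeq2, -0.30 with upper-quartile factors and -0.73 with library totals alone. Such scaling shifts all genes nearly alike and so could hardly change the gap to collagens, whose median stayed 0.51 to 0.52 lower. This gap was -0.70 with GC and length offsets, -0.42 without mSC library 4 and -0.37 without the expression filter.

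**Figure D1:**
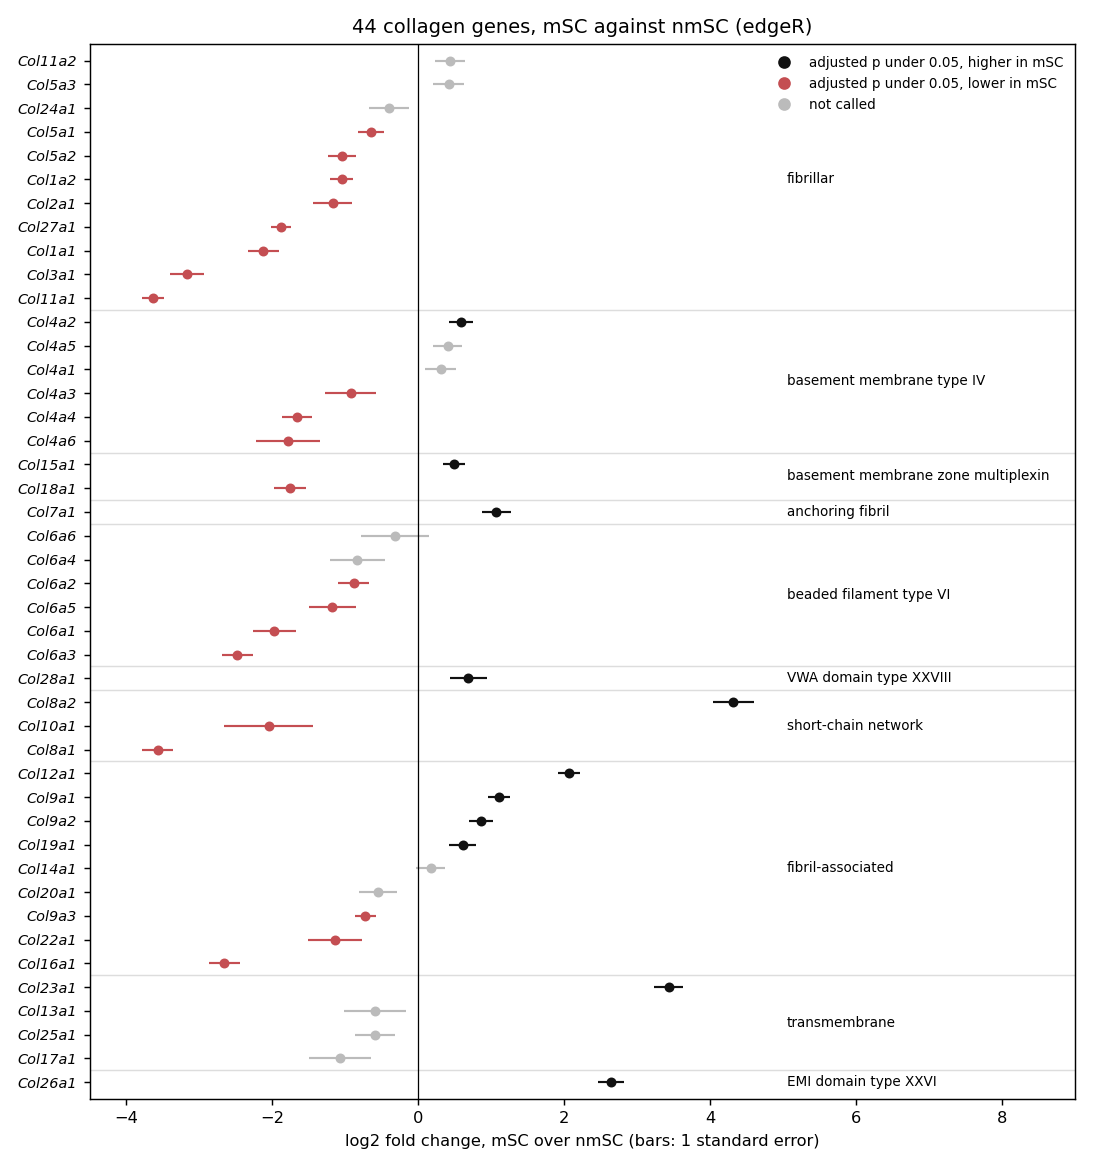
Log2 fold change of each of the 44 collagen genes between mSC and nmSC, with positive values higher in mSC, bars of 1 standard error and horizontal lines between classes. The changes run from -3.63 for Col11a1 to 4.32 for Col8a2, and no fibrillar gene was called higher in this fit. The other classes with several members hold genes called in both directions or in 1 direction only.

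In the main fit, the fibrillar collagens fell in mSC or were not called. Of the 11 genes, 0 were called higher, 8 were called lower and 3 (Col5a3, Col11a2 and Col24a1) were not called. Their median log2 fold change was -1.05. Without mSC library 4, Col5a3 and Col11a2 were called higher, Col11a2 with a log2 fold change of 0.59 (edgeR, adjusted p = 0.019). The Wald test of DESeq2 on all libraries also called Col11a2 higher. The genes of types I and III, the main fibril formers of connective tissue, held most of the collagen counts. Together Col3a1, Col1a1 and Col1a2 took 80.5% of all collagen counts in nmSC, 72.6% in allSC and 49.6% in mSC (means of 4).

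Col3a1 (ENSMUSG00000026043, GRCm38 chr1:45311538-45349706), the single chain of type III collagen, was at 5982, 7202, 10148 and 8068 CPM in nmSC (libraries 1 to 4), at 4821, 4624, 4918 and 4835 in allSC and at 939.6, 893, 1216 and 453 in mSC. The gates did not overlap, and mSC library 4 was the lowest of all 12. In the edgeR fit Col3a1 fell 8.97-fold in mSC against nmSC (log2 fold change -3.16, SE 0.23, adjusted p = 1.5e-09). Col1a1 (GRCm38 chr11:94936224-94953042) was at 3393, 3299, 4082 and 2906 CPM in nmSC, at 2034, 2206, 2308 and 2451 in allSC and at 783, 955, 1017 and 391 in mSC. Col1a2 (GRCm38 chr6:4504814-4541544), its partner in type I collagen, was at 3266, 3418, 4605 and 3764 CPM in nmSC, at 2761, 2867, 2862 and 3002 in allSC and at 2018, 1997, 2051 and 1208 in mSC. Their mSC libraries all lay under the lowest library of the other gates, but by different amounts. The change of Col1a1 from nmSC to mSC was 4.35-fold, lower in mSC (log2 fold change -2.12, SE 0.21, adjusted p = 1.5e-07). Relative to nmSC, the level of Col1a2 in mSC was 2.07-fold lower (log2 fold change -1.05, SE 0.16, adjusted p = 2.4e-05). Without mSC library 4, the log2 fold changes of Col3a1, Col1a1 and Col1a2 were -2.94, -1.89 and -0.89.

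**Figure D2:**
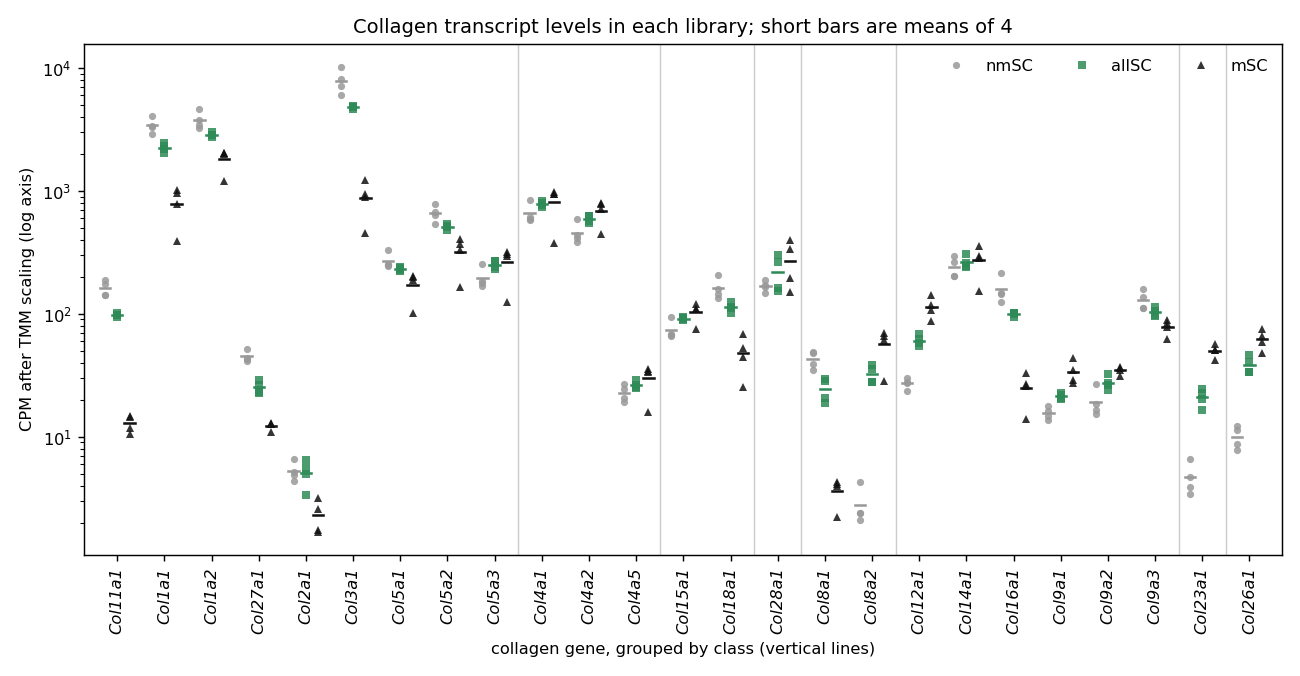
CPM after TMM scaling, on a log axis, of the 25 collagens given by library, in the 4 nmSC (grey circles), 4 allSC (green squares) and 4 mSC libraries (black triangles), with a bar at each mean and vertical lines between classes. For most genes the green squares lie between the other gates, and a single low triangle in many mSC columns is library 4.

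Type V and XI chains join type I and II fibrils and set their diameter. Col11a1 (GRCm38 chr3:114030540-114220718) was at 141, 142, 187 and 174 CPM in nmSC, at 101, 93.4, 97.3 and 98.5 in allSC and at 14.7, 11.9, 14.5 and 10.5 in mSC. It had the most negative fold change of the 44 genes, with the mSC libraries far below the others. Col11a1 was 12.4-fold lower in mSC (log2 fold change -3.63, SE 0.15, adjusted p = 1.3e-12). Col5a2 was at 537, 634, 787 and 669.9 CPM in nmSC, at 518, 542, 484 and 509 in allSC and at 403, 331, 372 and 167 in mSC, and Col5a1 was at 249.9, 247, 332 and 255 CPM in nmSC, at 225, 234, 225 and 239.6 in allSC and at 202, 199, 190.0 and 101 in mSC. For these genes too, the highest mSC library lay under the lowest nmSC library. In the edgeR fit Col5a2 fell 2.06-fold in mSC against nmSC (log2 fold change -1.05, SE 0.20, adjusted p = 2.8e-04). The change of Col5a1 from nmSC to mSC was 1.56-fold, lower in mSC (log2 fold change -0.65, SE 0.17, adjusted p = 0.0061).

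Col5a3, a type V chain known to be secreted by Schwann cells, did not follow the other type V chains. It was at 178, 169, 255 and 184 CPM in nmSC, at 267, 242, 229.8 and 269 in allSC and at 321, 308, 296 and 126 in mSC. Libraries 1 to 3 of mSC were above every nmSC library and library 4 was below them all. The difference of Col5a3 did not pass the test (log2 fold change 0.42, SE 0.21, adjusted p = 0.12). Without mSC library 4, its log2 fold change was 0.66 (adjusted p = 2.3e-04). Scaling by library totals alone turned its sign (-0.12).

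Col27a1, a fibrillar collagen best known from cartilage, was at 51.9, 41.7, 44.1 and 43.3 CPM in nmSC, at 26.3, 29.2, 22.9 and 23.1 in allSC and at 12.8, 10.9, 12.9 and 12.7 in mSC. It fell in mSC in all libraries, library 4 included. Col27a1 was 3.67-fold lower in mSC (log2 fold change -1.88, SE 0.14, adjusted p = 1.9e-09). Col2a1, the cartilage collagen that was used in the study as a marker of an endoneurial cell type, was at 4.90, 5.18, 6.57 and 4.35 CPM in nmSC, at 5.60, 3.34, 5.001 and 6.43 in allSC and at 1.70, 2.604, 3.18 and 1.75 in mSC. The mSC and nmSC libraries did not overlap. In the edgeR fit Col2a1 fell 2.25-fold in mSC against nmSC (log2 fold change -1.17, SE 0.27, adjusted p = 0.0020). Its level per kilobase was 0.568 CPM in nmSC, 0.551 in allSC and 0.250 in mSC. This was under the 95th percentile of 1452 olfactory and vomeronasal receptor genes, which are not expected in nerve and served as a mark of stray reads. That percentile, called the receptor level below, was 0.739 CPM per kilobase in nmSC, 0.663 in allSC and 0.513 in mSC.

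Per kilobase of exon, the order of the genes at the top differed between the gates. In nmSC, Col3a1 had 799.7 CPM per kilobase, Col1a1 521, Col1a2 303, Col4a1 87.8 and Col4a2 68.8. In mSC, Col1a2 was first with 146, followed by Col1a1 with 120, Col4a1 with 109, Col4a2 with 103 and Col3a1 with 89.2. In mSC the ranges of these 5 genes over the 4 libraries all overlapped. Without mSC library 4, every library of Col1a2 (161 to 165) lay above those of the other 4 genes, of which the highest was 155 for Col1a1. In nmSC the lowest library of Col1a2 was above the highest of Col4a1. The order between genes rests on the length each gene is given, which here is the union of its exons. By the length of the longest transcript instead, Col1a2 passed Col1a1 in nmSC (704 against 577 CPM per kilobase) and Col3a1 was second in mSC, with 157 behind 340.1 for Col1a2. Collagens took 2.02% to 2.69% of all counts in the nmSC libraries, 1.37% to 1.39% in allSC and 0.309% to 0.694% in mSC. The low end of mSC was library 4, and the mean of mSC was 0.581% with it and 0.671% without it. Summed per kilobase, fibrillar genes made up 83.3% ± 0.316 of the collagen total in nmSC, 74.9% ± 1.42 in allSC and 51.4% ± 2.61 in mSC (SD, n = 4). Type IV genes made up 7.62% ± 0.180, 12.5% ± 0.497 and 24.7% ± 0.952. Their share was 23.4% to 25.6% in the mSC libraries, library 4 included, and 7.46% to 7.81% in the nmSC libraries. By longest transcript, the type IV share was 5.33% in nmSC and 18.8% in mSC, and the fibrillar share 87.5% and 60.4%. The type IV sum was 162 ± 29.7 CPM per kilobase in nmSC, 199.6 ± 10.7 in allSC and 217 ± 65.0 in mSC, while the fibrillar sum was 1771 ± 301, 1192 ± 38.3 and 451 ± 134. In mSC libraries 1 to 3 the type IV sum was 241 to 257, above every nmSC library (141 to 206). In mSC library 4 it was 120, below every nmSC library.

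**Figure D3:**
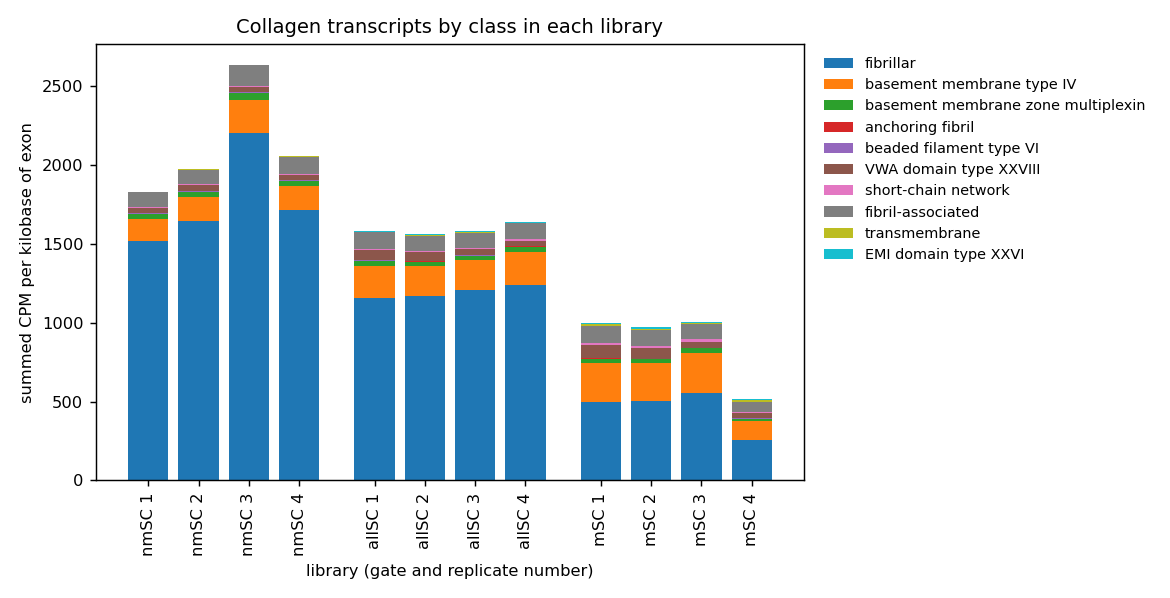
Summed CPM per kilobase of exon of the 10 collagen classes in each of the 12 libraries, as stacked bars from 0. The fibrillar part (blue) shrinks from 1771 in nmSC to 451 in mSC on average, while the type IV part (orange) has means of 162 in nmSC and 217 in mSC. In mSC library 4 the type IV part is 120, below every nmSC library.

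Type IV collagen is built from 6 chains, encoded in 3 pairs of neighbouring genes that face away from each other. Of the 6, 1 was higher in mSC, 3 were lower and 2 were not called. Of the abundant pair that forms the network of most basement membranes, Col4a2 rose in mSC and Col4a1 was not called. Col4a1 (GRCm38 chr8:11198423-11312826) was at 577, 594, 838 and 612 CPM in nmSC, at 796, 762, 745 and 828 in allSC and at 947, 947, 981 and 376 in mSC. Libraries 1 to 3 of mSC, at 947 to 981 CPM, were above every other library and library 4 was below every other. Col4a1 was not called between mSC and nmSC (log2 fold change 0.31, SE 0.21, adjusted p = 0.25). Without mSC library 4 its log2 fold change was 0.55 (adjusted p = 6.3e-04), and with library totals alone it was -0.23. Col4a2 (GRCm38 chr8:11312805-11449287) was at 386, 414, 586 and 434 CPM in nmSC, at 628, 546, 566 and 624 in allSC and at 779, 715, 797 and 444 in mSC. Relative to nmSC, the level of Col4a2 in mSC was 1.503-fold higher (log2 fold change 0.59, SE 0.17, adjusted p = 0.0090). Its 3 highest mSC libraries were above the nmSC range and library 4 was within it. With library totals alone Col4a2 was not called (log2 fold change 0.045).

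The start sites of Col4a1, on the minus strand, and Col4a2, on the plus strand, overlap in the RefSeq annotation of GRCm38.p6, so that the first 22 transcribed bases of each are the 2 strands of the same stretch. It is shown because reads there can come from either gene, and how the counting assigned them is not stated.
Col4a1 and Col4a2, chr8:11312805-11312826, plus strand: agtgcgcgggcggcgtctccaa

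The less abundant type IV pairs differed from it. Col4a3 and Col4a4, whose chains join Col4a5 in the basement membrane of the kidney glomerulus, lie head to head 0.071 kb apart and were both lower in mSC, with log2 fold changes of -0.92 (SE 0.35, adjusted p = 0.041) and -1.66 (SE 0.21, adjusted p = 3.1e-06). Their gate means were 3.15, 2.40 and 1.62 CPM for Col4a3 and 11.4, 8.55 and 3.61 for Col4a4 in nmSC, allSC and mSC. Col4a3 was under the receptor level in every gate, and 10 of 18 alternative settings did not call it. Col4a4 was under that level in mSC only, at 0.340 CPM per kilobase. Col4a5 and Col4a6 lie head to head 1.31 kb apart on chromosome X. Col4a5 was at 24.5, 19.2, 20.7 and 27.1 CPM in nmSC, at 25.6, 29.0, 25.1 and 26.2 in allSC and at 35.8, 33.9, 34.6 and 16.0 in mSC, and it was not called (log2 fold change 0.40, adjusted p = 0.11). Library 4 was again the lowest of mSC, and without it the log2 fold change was 0.61 (adjusted p = 9.7e-04). Col4a6 had means of 6.11, 3.47 and 1.71 CPM in nmSC, allSC and mSC and was lower in mSC by 1.78 on the log2 scale (SE 0.44, adjusted p = 0.0035). Its level was above the receptor level in nmSC only.

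Collagens XV and XVIII, the multiplexins, sit at the outer face of basement membranes and carry fragments that inhibit vessel growth, of which endostatin comes from Col18a1. They moved in opposite directions. Col15a1 was at 66.7, 68.0, 94.3 and 66.2 CPM in nmSC, at 91.8, 90.8, 89.3 and 94.3 in allSC and at 119.9, 109, 109.7 and 75.3 in mSC. Library 3 of nmSC, at 94.3 CPM, was the only nmSC library above an mSC library. Col15a1 was 1.405-fold higher in mSC (log2 fold change 0.49, SE 0.15, adjusted p = 0.015). The call was lost with upper-quartile factors (log2 fold change 0.36, adjusted p = 0.065), and its sign turned with library totals alone (-0.057). Col18a1 was at 135, 145, 206 and 161 CPM in nmSC, at 114, 101, 111 and 125 in allSC and at 52.4, 44.5, 69.1 and 25.3 in mSC. Every mSC library was below every nmSC library. In the edgeR fit Col18a1 fell 3.37-fold in mSC against nmSC (log2 fold change -1.75, SE 0.22, adjusted p = 2.2e-06). Col7a1, the anchoring fibril collagen of skin, was low, with means of 8.30 CPM in nmSC, 13.0 in allSC and 17.3 in mSC, and was higher in mSC by a log2 fold change of 1.07 (SE 0.20, adjusted p = 2.6e-04).

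Type VI collagen forms beaded filaments next to basement membranes from the chains of Col6a1 and Col6a2 with another, often longer chain. Of the 6 genes, 0 were higher in mSC, 4 were lower and 2 (Col6a4 and Col6a6) were not called. All were at low levels. Col6a1 had means of 16.8 CPM in nmSC, 10.3 in allSC and 4.33 in mSC, Col6a2 8.10, 6.47 and 4.43, and Col6a3 14.3, 8.82 and 2.56. For Col6a1, Col6a2 and Col6a3, every mSC library lay below every nmSC library, with log2 fold changes of -1.97 (SE 0.29, adjusted p = 2.1e-05), -0.88 (SE 0.22, adjusted p = 0.0030) and -2.48 (SE 0.21, adjusted p = 1.8e-08) in edgeR. Col6a3 was under the receptor level in mSC only, at 0.214 CPM per kilobase, so the size of its change rests on a low level there. Col6a5, under the receptor level in every gate, had means of 4.16, 2.77 and 1.79 CPM and a log2 fold change of -1.18 (SE 0.32, adjusted p = 0.0068).

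Collagen XXVIII shares the von Willebrand factor A domains of type VI and is known as a collagen of the peripheral nerve. Col28a1 (ENSMUSG00000068794, GRCm38 chr6:7997808-8192617) was at 171, 189, 164 and 149 CPM in nmSC, at 299, 263, 162 and 152 in allSC and at 399, 335, 195 and 151 in mSC. In all 3 gates the libraries of subjects 1 and 2 were above those of subjects 3 and 4. The 4 nmSC libraries stayed within the narrower range of 149 to 189 CPM. The change of Col28a1 from nmSC to mSC was 1.61-fold, higher in mSC (log2 fold change 0.69, SE 0.25, adjusted p = 0.038). The call was lost in 9 of 18 alternative settings, while in the fit with the subject as a replicate block the log2 fold change was 0.57 (SE 0.17, adjusted p = 0.014). The study used 2 male and 2 female mice for each gate. It reports that the samples of every gate grouped in pairs of the same sex in its scaling plot. The labels do not tell which subjects were male, and sex-linked genes were not examined here. A sex difference and other differences between subjects were thus not told apart, and neither was tested.

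The short-chain collagens VIII and X form hexagonal networks and are best known from the cornea, the vessel wall and growing cartilage. The type VIII genes gave the largest contrast among all collagens. Col8a2 (ENSMUSG00000056174, GRCm38 chr4:126286793-126314330) was at 2.11, 2.38, 2.39 and 4.28 CPM in nmSC, at 35.3, 27.9, 27.9 and 38.1 in allSC and at 61.7, 65.6, 70.3 and 28.5 in mSC. No mSC library was below 28.5 CPM and no nmSC library was above 4.28. Relative to nmSC, the level of Col8a2 in mSC was 19.9-fold higher (log2 fold change 4.32, SE 0.28, adjusted p = 3.0e-10). Its level in nmSC, of 0.621 CPM per kilobase, was under the receptor level. Col8a1 (ENSMUSG00000068196, GRCm38 chr16:57624258-57754737) was at 48.9, 47.8, 35.2 and 39.2 CPM in nmSC, at 29.3, 28.6, 20.8 and 18.7 in allSC and at 2.24, 4.25, 3.96 and 4.11 in mSC. Here it was mSC that was low in every library, at 0.465 CPM per kilobase and under the receptor level of that gate. Col8a1 was 11.9-fold lower in mSC (log2 fold change -3.57, SE 0.22, adjusted p = 1.4e-10). Col10a1 had 0 to 6 counts in the mSC libraries and 10 to 12 in the nmSC libraries. Its call (log2 fold change -2.04, SE 0.61, adjusted p = 0.012) thus rests on few counts, under the receptor level in every gate.

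Fibril-associated collagens decorate the surface of fibrils and link them to other matrix. Of the 9 genes, 4 were higher in mSC, 3 were lower and 2 (Col14a1 and Col20a1) were not called. Col12a1 (GRCm38 chr9:79598991-79718831), which binds type I fibrils and is known from tendon and muscle, was at 27.5, 23.7, 27.9 and 29.9 CPM in nmSC, at 68.5, 62.3, 57.7 and 54.3 in allSC and at 142, 117, 108 and 88.0 in mSC. All mSC libraries exceeded all nmSC libraries. In the edgeR fit Col12a1 rose 4.18-fold in mSC against nmSC (log2 fold change 2.06, SE 0.15, adjusted p = 1.7e-09). The related Col14a1 was at 204, 204, 293 and 266 CPM in nmSC, at 308, 247, 239 and 259 in allSC and at 355, 295, 285 and 153 in mSC, with overlapping gates. Col14a1 was not called between mSC and nmSC (log2 fold change 0.17, SE 0.19, adjusted p = 0.49). Without mSC library 4 it was called (log2 fold change 0.37, adjusted p = 0.035), and with library totals alone its sign turned (-0.36). Col16a1, found near basement membranes and fibrils alike, was at 125, 149, 213 and 145 CPM in nmSC, at 94.6, 101, 102 and 100.4 in allSC and at 25.98, 26.7, 33.2 and 14.0 in mSC. Only Col11a1, Col8a1 and Col3a1 had a more negative fold change. Relative to nmSC, the level of Col16a1 in mSC was 6.29-fold lower (log2 fold change -2.65, SE 0.21, adjusted p = 4.8e-09).

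The 3 chains of type IX collagen, which are known to join in a single trimer in cartilage, did not move together. Col9a1 was at 17.8, 16.3, 13.8 and 14.8 CPM in nmSC, at 21.7, 20.8, 20.4 and 22.6 in allSC and at 28.9, 35.2, 27.5 and 43.6 in mSC. Col9a1 was 2.16-fold higher in mSC (log2 fold change 1.11, SE 0.16, adjusted p = 1.1e-05). Col9a2 was at 16.4, 15.4, 27.0 and 18.4 CPM in nmSC, at 24.2, 26.4, 27.2 and 32.2 in allSC and at 37.0, 35.2, 36.5 and 31.4 in mSC. In the edgeR fit Col9a2 rose 1.81-fold in mSC against nmSC (log2 fold change 0.86, SE 0.17, adjusted p = 3.8e-04). For both, the lowest mSC library was above the highest nmSC library. With library totals alone, Col9a2 was not called (log2 fold change 0.31, adjusted p = 0.099). Col9a3 was more abundant per kilobase than either in every gate, and it was lower in mSC. It was at 112, 111, 159 and 137 CPM in nmSC, at 98.5, 96.4, 113 and 105 in allSC and at 88.6, 84.5, 77.9 and 62.3 in mSC. The change of Col9a3 from nmSC to mSC was 1.65-fold, lower in mSC (log2 fold change -0.73, SE 0.14, adjusted p = 4.7e-04). Of the others, Col19a1 had means of 9.26 CPM in nmSC, 11.1 in allSC and 14.2 in mSC (log2 fold change 0.61, SE 0.19, adjusted p = 0.015; with library totals alone 0.051, adjusted p = 0.82), and Col22a1 6.04, 4.32 and 2.62 (log2 fold change -1.14, SE 0.37, adjusted p = 0.020). Col22a1 was under the receptor level in every gate, and the overlapping mSC and nmSC libraries spanned 0.748 to 5.16 and 3.95 to 7.81 CPM.

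Of the 4 transmembrane collagens, 1 was higher in mSC and 3 were not called. Col23a1 (GRCm38 chr11:51289920-51583918), a membrane collagen that can be shed from the cell surface, was at 6.62, 3.91, 3.43 and 4.74 CPM in nmSC, at 24.3, 22.6, 16.6 and 20.2 in allSC and at 56.6, 51.0, 42.4 and 50.7 in mSC. Library 4 of mSC was within the range of the other 3, and no gate overlapped another. Relative to nmSC, the level of Col23a1 in mSC was 10.8-fold higher (log2 fold change 3.43, SE 0.20, adjusted p = 5.6e-11). Col13a1, Col17a1 and Col25a1 were under the receptor level in every gate. Col17a1, the hemidesmosome collagen of skin, was close to the threshold (log2 fold change -1.07, SE 0.42, adjusted p = 0.051) and passed it with the replicate block (-1.16, SE 0.43, adjusted p = 0.044). Col26a1 (GRCm38 chr5:136741759-136883209), a small collagen with an EMI domain, was at 12.19, 11.3, 7.84 and 8.76 CPM in nmSC, at 33.7, 40.5, 33.9 and 46.1 in allSC and at 48.2, 75.6, 66.5 and 58.8 in mSC. Its 3 gates did not overlap. Col26a1 was 6.24-fold higher in mSC (log2 fold change 2.64, SE 0.18, adjusted p = 7.0e-10).

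Across the 44 genes, 25 were given by library and the other 19 had gate means of 0.186 to 17.3 CPM. Of these 19, 2 were called higher in mSC, 9 lower and 8 were not called. A total of 33 genes were above the receptor level in at least 1 gate and 11 were at or under it in all 3. Exon bases are shared with another gene by 13 members, in 10 of them with a gene on the opposite strand and in 3 on the same strand, so that their counts can hold reads of the other gene. Many members at low levels fell in mSC, and the receptor genes, pooled, were also lower there, at 0.207 CPM per kilobase against 0.334 in nmSC. The part of stray reads in the calls of these members was not tested. Among the genes with large changes, the sharing of exon bases touches Col3a1, which overlaps the predicted gene Gm47302 on its own strand.

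The allSC gate asked whether the profile of the mixed population lies between its enriched fractions. The 3 comparisons share libraries, so their values are given side by side. Against allSC, 5 collagens were higher in mSC and 14 were lower (edgeR), where 8.76% and 8.80% of all genes were higher and lower. The median log2 fold change was -0.41 over collagens and -0.052 over all genes. The 5 higher were Col23a1 (log2 fold change 1.26), Col12a1 (0.91), Col8a2 (0.81), Col26a1 (0.69) and Col9a1 (0.66). The lowest were Col11a1 (-2.91), Col8a1 (-2.76), Col3a1 (-2.45), Col16a1 (-1.99) and Col6a3 (-1.78). The adjusted p of these 10 genes ran up to 0.020. Without mSC library 4, 8 were higher and 13 lower.

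Between nmSC and allSC, 6 collagens were higher in nmSC and 5 were lower, where 2.82% and 7.55% of all genes were. The 6 higher were Col27a1 (0.83), Col8a1 (0.81), Col11a1 (0.72), Col3a1 (0.71), Col6a3 (0.70) and Col16a1 (0.67), all by log2 fold changes under 1. The 5 lower were Col8a2 (-3.50), Col23a1 (-2.17), Col26a1 (-1.95), Col12a1 (-1.15) and Col7a1 (-0.65). With the replicate block Col6a1 was also called higher (log2 fold change 0.71, adjusted p = 0.041 in place of 0.12). The count of higher genes was 3 without nmSC library 3, without allSC library 1 or without allSC library 2.

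The mean of allSC lay between the means of the other gates for 41 of the 44 collagens, and for 69.5% of all genes. It did so for all 32 genes called between mSC and nmSC with the main scaling and for 30 of them with library totals alone. Where the fractions differ, their mixture is likely to lie between them, so this result was close to fixed in advance. The share over all called genes is not given here, and collagens were called more often than all genes. The 41 of 44 is therefore not read as a trait of collagens. For the 21 called genes given by library, allSC stood 5.23% (Col2a1) to 60.4% (Col27a1) of the way from nmSC to mSC, with a median of 44.4%. Col9a1, at 31.5%, and Col23a1, at 35.7%, were nearer to nmSC, and Col8a2, at 54.9%, and Col26a1, at 54.6%, were nearer to mSC.

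The ratio of 2 collagen genes within a library does not depend on how libraries are scaled. For 9 pairs of chains of 1 collagen type or 1 kind of fibril, the ratio of CPM per kilobase was computed in each library. The pairs were chosen after the levels were seen, so the ratios are a description. An exact test of mSC against nmSC gave every pair p = 0.029. This is the smallest p that 4 against 4 libraries allow, and it is not used as support. In all 9, the mSC and nmSC libraries did not overlap. Other pairs of genes were not counted, and some of these pairs join chains that moved in opposite directions. The count is therefore not read as a trait of collagens. Col1a1 over Col1a2 was 1.97, 1.83, 1.68 and 1.46 in nmSC, 1.39, 1.46, 1.53 and 1.55 in allSC and 0.734, 0.905, 0.939 and 0.613 in mSC. Since the absolute ratio depends on the exon length assigned to each gene, only its difference between gates is read. The fold from nmSC to mSC, taken from geometric means, was 0.456 (0.496 without mSC library 4). Col3a1 over Col1a1 was 1.18, 1.46, 1.66 and 1.86 in nmSC, 1.59, 1.402, 1.42 and 1.319 in allSC and 0.803, 0.626, 0.799 and 0.773 in mSC, a fold of 0.492.

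Within type V, Col5a1 over Col5a2 differed by a fold of 1.34 and Col5a3 over Col5a1 by a fold of 2.05. The latter was 0.889, 0.854, 0.959 and 0.898 in nmSC, 1.47, 1.29, 1.27 and 1.399 in allSC and 1.98, 1.93, 1.95 and 1.55 in mSC. Col4a1 over Col4a2 was 1.324, 1.27, 1.27 and 1.25 in nmSC, 1.12, 1.24, 1.17 and 1.18 in allSC and 1.08, 1.17, 1.09 and 0.750 in mSC. This was the smallest difference of the 9, with a log2 difference of -0.34, and of -0.20 without mSC library 4. Col8a1 over Col8a2 gave the largest, with a log2 difference of -7.90. It was 13.3, 11.5, 8.45 and 5.25 in nmSC, 0.475, 0.587, 0.426 and 0.281 in allSC and 0.0208, 0.0371, 0.0323 and 0.0826 in mSC. Col8a2 in nmSC (22 to 65 counts) and Col8a1 in mSC (33 to 51 counts) were under the receptor level. The size of this difference thus rests on low levels. Over Col9a3, the fold was 3.52 for Col9a1 and 3.07 for Col9a2, and for Col6a1 over Col6a2 it was 0.466.

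**Figure D4:**
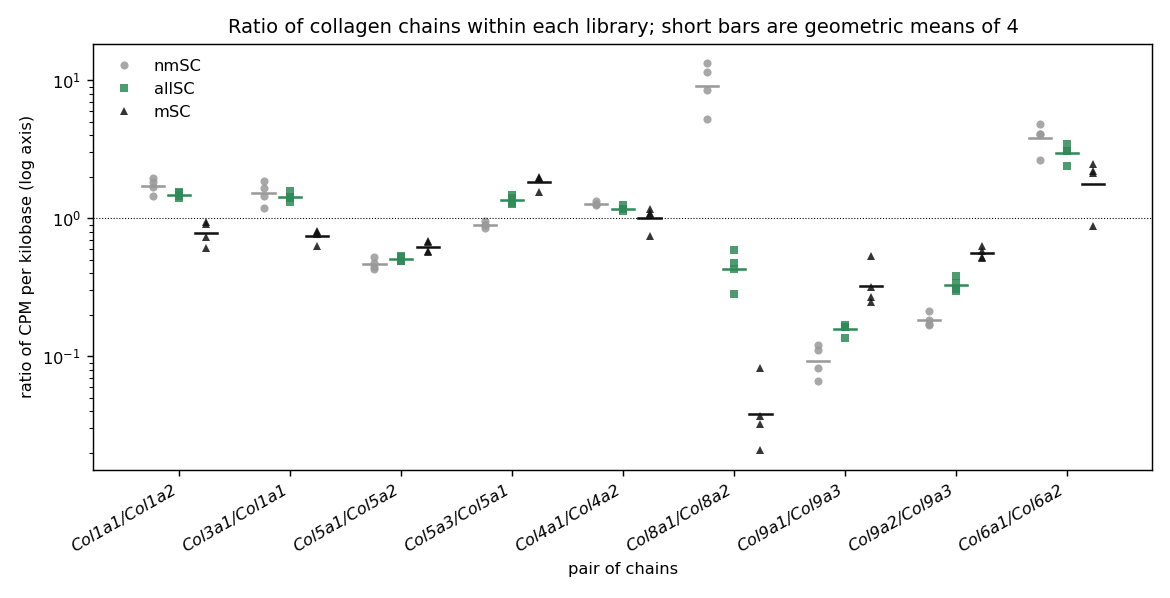
Ratio of CPM per kilobase of 9 pairs of collagen chains in each library, on a log axis with a dotted line at 1, for nmSC (grey circles), allSC (green squares) and mSC (black triangles), with bars at geometric means. For each pair the grey and the black points are apart, most of all for Col8a1 over Col8a2, and the green points lie between them or touch one of them.

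Collagen chains pass through an enzyme and transport line before they become fibrils, and 67 genes of this line were examined, of which 66 were tested. In mSC against nmSC, 14 were higher, 18 were lower and 34 were not called, where 20.4% of all genes tested were higher and 20.1% lower, with a median log2 fold change of -0.068. The first step is the hydroxylation and glycosylation of prolines and lysines. Of 15 such genes, 4 were higher in mSC, 2 were lower and 9 were not called. The prolyl 4-hydroxylase subunit genes went in opposite directions, with P4ha1 at 138 CPM in nmSC and 226 in mSC (log2 fold change 0.71, adjusted p = 9.7e-05) and P4ha2 at 15.8 and 2.52 (-2.65, adjusted p = 3.8e-09). Likewise the prolyl 3-hydroxylase genes P3h1 (0.78) and P3h2 (-0.83) differed in sign, and the lysine-modifying enzyme genes Plod1 (0.45) and Colgalt1 (0.49) were higher. Of 12 genes of folding, chaperoning and export, 5 were higher and 1 was lower. The higher were Fkbp14 (1.44), Sec24d (0.85), Tmem38b (0.73), Rcn3 (0.61) and Sec23a (0.61), which fold proteins, store calcium or build the transport vesicles of the endoplasmic reticulum. Fkbp10, a collagen-binding isomerase whose loss causes brittle bone disease, was lower (-1.57). Serpinh1, the collagen chaperone, was at 471 CPM in nmSC and 430.4 in mSC and was not called (adjusted p = 0.49).

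Outside the cell, propeptides are cut off, fibrils are cross-linked and old fibrils are removed. Of 8 genes of propeptide removal, Tll1 was higher in mSC (log2 fold change 1.80) and Adamts2 (-2.91) and Bmp1 (-1.04) were lower, with 5 not called. Of 7 cross-linking genes, Lox (0.84) and Tgm2 (0.95) were higher, Loxl2 (-2.5) was lower and 4 were not called. Of 12 tested genes of breakdown and uptake, Mmp15 was higher (0.59), 6 were lower and 5 were not called. The 4 with the smallest adjusted p among the lower were Mmp14 (-2.63), Mmp2 (-1.59), Timp2 (-0.59) and Ctsk (-0.89), of which Mmp14 activates the product of Mmp2 at the cell surface and Timp2 inhibits both. Among 12 collagen receptor genes, 6 were lower, 1 was higher and 5 were not called. Itga1, the α chain of a collagen-binding integrin, was at 52.7 CPM in nmSC and 6.85 in mSC (-2.94, adjusted p = 3.8e-12). Adgrg6, the adhesion receptor that Schwann cells need to start myelin formation and that binds type IV collagen, was at 183 and 109 (-0.75, adjusted p = 0.0015), Itga2 had -0.61 and Ddr2 -0.93, while Adgrg1, a receptor of type III collagen in the brain, was higher (0.67, adjusted p = 0.0049).

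Several members lie next to each other in the genome. Col3a1 and Col5a2, which lie tail to tail 24.6 kb apart, were both lower in mSC, as were Col6a1 and Col6a2, 85.2 kb apart on the same strand. Col9a1 and Col19a1, tail to tail 9.21 kb apart, were both higher. Of the 44 members, 35 had a promoter window in the RefSeq table of GRCm38.p6 (38 windows). Within the 250 bases before the start, GGGCGG (the GC box) was found on either strand for 21 of the 35, and for 32.9% of the 27025 genes with a window. CCAAT was found for 13 (34.5% of all genes), TATAAA for 5 (13.0%), GGAATG, the core of the site of TEAD factors, for 4 (12.6%) and TGANTCA, the site of AP-1, for 1 (6.87%). These are matches of letters, overlapping matches of 1 motif included, and not sites. A member counted if any of its windows matched, while the share over all genes used 1 window per gene. The counts and shares are thus not quite the same measure. Col9a1 had CCAAT, and Col18a1 had GGAATG, in only 1 of their windows. The 4 windows shown hold no annotated exon and stand for genes with large falls in mSC (Col3a1, Col11a1 and Col8a1) and for Col23a1, the gene with the largest rise among those with such a window. They are printed 5′ to 3′ on the strand of the gene, with the letters of any match to these 5 motifs in capitals.
Col3a1, chr1:45311288-45311537, plus strand: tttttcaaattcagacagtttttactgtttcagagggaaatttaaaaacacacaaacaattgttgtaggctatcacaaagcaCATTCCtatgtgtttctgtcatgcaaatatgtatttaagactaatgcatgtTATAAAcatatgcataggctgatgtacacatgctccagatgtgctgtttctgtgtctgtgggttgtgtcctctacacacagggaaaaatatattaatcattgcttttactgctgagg
Col11a1, chr3:114030290-114030539, plus strand: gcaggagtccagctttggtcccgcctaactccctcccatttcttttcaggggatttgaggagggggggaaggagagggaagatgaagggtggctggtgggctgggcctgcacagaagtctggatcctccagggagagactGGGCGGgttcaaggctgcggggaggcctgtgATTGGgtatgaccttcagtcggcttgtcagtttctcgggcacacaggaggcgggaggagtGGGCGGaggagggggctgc
Col8a1, chr16:57754738-57754987, minus strand: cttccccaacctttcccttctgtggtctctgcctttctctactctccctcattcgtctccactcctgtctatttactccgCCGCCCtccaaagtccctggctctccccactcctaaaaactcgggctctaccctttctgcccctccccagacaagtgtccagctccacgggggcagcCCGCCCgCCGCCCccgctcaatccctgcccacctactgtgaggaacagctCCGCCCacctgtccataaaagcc
Col23a1, chr11:51289670-51289919, plus strand: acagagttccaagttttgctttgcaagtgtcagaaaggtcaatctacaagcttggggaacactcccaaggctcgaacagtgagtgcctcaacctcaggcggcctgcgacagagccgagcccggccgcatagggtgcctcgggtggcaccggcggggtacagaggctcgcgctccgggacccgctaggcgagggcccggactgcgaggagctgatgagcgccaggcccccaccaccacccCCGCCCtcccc
In these windows Col3a1 had 1 TATAAA and 1 match to GGAATG, Col11a1 had 2 of GGGCGG and 1 of CCAAT, Col8a1 had 4 of GGGCGG and Col23a1 had 1.

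The libraries differ within a gate by gene length, which bears on collagens since their exons are long. Over 9400 genes with a mean of at least 10 CPM, the deviation of a library from the mean of its gate, as log2(CPM + 1), was taken in 10 classes of rising exon length. In mSC library 4 the median was 0.92 in the class of the shortest genes and -0.18 in that of the longest (1308 genes), and in mSC library 1 it was -0.73 and 0.19. Over the 25 collagens, the median was -0.78 in mSC library 4 and 0.25 in mSC library 1. The collagens of library 4 were thus further down than the longest genes. In nmSC library 3 the collagen median was 0.38, and 0.0069 in the class of the longest genes. With offsets for GC content and length, 12 collagens were higher in mSC than in nmSC and 21 were lower.

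**Figure D5:**
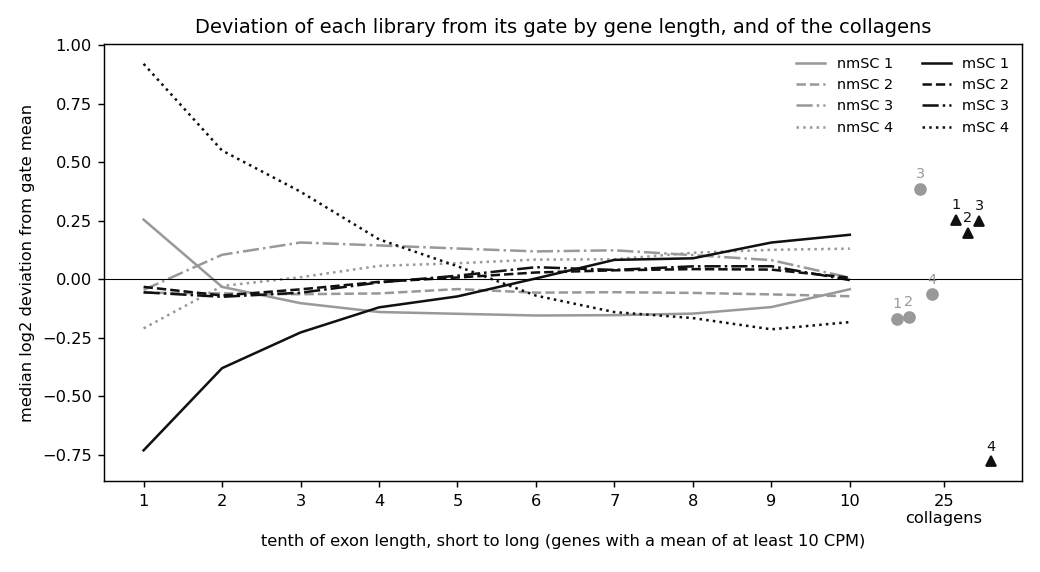
Median log2 deviation of each mSC and nmSC library from the mean of its gate in 10 classes of exon length, and at the right, numbered by library, the median over the 25 collagens. Library 4 of mSC runs from 0.92 for the shortest genes to -0.18 for the longest and lies at -0.78 for collagens, and nmSC library 3 lies at 0.38.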

How the data were processed

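RNA of 12 sorted Schwann cell samples was sequenced as Smart-Seq2 libraries. Per the labels and the study's methods, the authors used bcl2fastq, STAR 2.6.1c and featureCounts, and deposited whole-number counts per Ensembl gene that are not normalized. The submitters' notes name the build GRCm38.p5, whereas the study's methods name a human build. The handling of multi-mapping reads and of strand is not given in the sources used here.

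Symbols and exon lengths came from GENCODE M21, which matched 25664 of 25700 identifiers. Counts were fitted in edgeR 4.0.16 (R 4.3.3, limma 3.58.1) with TMM factors, the default filter by gate and the quasi-likelihood test, in 1 model over the 3 gates. Values of p were adjusted by Benjamini and Hochberg over 18597 genes, with a threshold of 0.05. Levels by longest transcript are given where the order of genes turns on length. CPM values use TMM-scaled library sizes, and per-kilobase values divide them by the union of exons. Fitted fold changes include a prior count. Tables and figures were made in Python 3.11.15.

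Library totals were 10092477 to 14482001 counts in allSC, 10777161 to 16918122 in mSC and 8180927 to 13077387 in nmSC. TMM factors were 0.744 to 0.871 in mSC and 1.16 to 1.27 in nmSC. No libraries were duplicates: their counts differed by a chi-square of 4.41 to 115.3 per degree of freedom. Floors of 3 counts cover counting error only.

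The label gives each library a subject number that recurs across gates, and does not say whether a number marks 1 animal. Deviations of same-numbered libraries from their gate means correlated between -0.225 and 0.246, with 4 of 12 values over 0.1. The main fit has no block, and a fit with the subject as a replicate block was an alternative, as were DESeq2 1.42.0, other scalings and filters, fits of single pairs of gates, offsets for GC content and length, and leaving out each library. Chain ratios without mSC library 4 were added after seeing the data. On simulated counts for mSC against nmSC, with 18026 genes tested on average, edgeR recovered 51.2% of genes changed 2-fold and 86.0% of those changed 4-fold. It recovered 9.6% of genes changed 1.5-fold, and 6.11% of its calls were false. The simulation changed only 200 genes and held no library that stood apart and no trend with gene length. Its rates may thus differ from those of the real contrast.

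Library values were given for members with a mean of at least 20 CPM in 1 gate and for Col2a1. Other members were named with gate means where they passed the test between mSC and nmSC, and from each pathway list up to 4 genes with the smallest adjusted p in each direction were named, plus genes a sentence needed. The members and lists were chosen with earlier results of these data known.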

Additional observations from a re-analysis of the deposited data

Results flagged for a closer look

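Of 75 groups of 4 libraries examined, 12 held a library whose gap to its nearest neighbour, set against the range of the group, passed the 95% critical value of Dixon's test, where chance gives about 1 in 20. Library 4 of mSC was the low one for 5 genes. Col4a1 was at 376 CPM there and at 947 to 981 in the other mSC libraries, Col4a5 at 16.0 and at 33.9 to 35.8, Col1a2 at 1208 and at 1997 to 2051, and Col5a1 at 101 and at 190.0 to 202. In the same library Col5a3 was at 126 CPM against 296 to 321. Library 3 of nmSC was the high one for Col4a1 (838 against 577 to 612 CPM), Col15a1 (94.3 against 66.2 to 68.0), Col5a1 (332 against 247 to 255) and Col5a3 (255 against 169 to 184). Library 2 of mSC was low for Col27a1 (10.9 against 12.7 to 12.9 CPM), library 1 of mSC was low for Col8a1 (2.24 against 3.96 to 4.25), and library 4 of nmSC was high for Col8a2 (4.28 against 2.11 to 2.39). The cause was not tested.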

How the results depend on the processing

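Between mSC and nmSC, the 11 higher and 21 lower collagens became 6 and 27 with library totals alone, 9 and 25 with upper-quartile factors, 11 and 20 with DESeq2 size factors, 12 and 21 with the Wald test of DESeq2 and 12 and 21 with GC and length offsets. Over all genes the split was 3794 higher and 3746 lower, against 1448 and 10392 with library totals alone, 2977 and 4953 with upper-quartile factors, 4208 and 3288 with DESeq2 size factors, and 4813 and 3123 with GC and length offsets. With library totals alone, mSC had 2 higher collagens than allSC and nmSC had 12, and 5 log2 fold changes between mSC and nmSC turned sign: Col4a1 (-0.23), Col4a5 (-0.14), Col15a1 (-0.057), Col14a1 (-0.36) and Col5a3 (-0.12). Fitting only the gates compared gave 12 collagens higher in nmSC than in allSC, and the replicate block with GC and length offsets gave 10. The replicate block alone gave 11 higher and 22 lower between mSC and nmSC, 5 and 14 between mSC and allSC, and 7 and 5 between nmSC and allSC, and changed only the calls of Col17a1 and Col6a1. Leaving out 1 library gave 10 to 16 higher and 19 to 23 lower between mSC and nmSC, the 16 without mSC library 4. It gave 4 to 8 higher between mSC and allSC, the 8 without mSC library 4, and 3 to 6 higher between nmSC and allSC, the 3 without allSC library 1, allSC library 2 or nmSC library 3. Across 18 alternatives, Col4a3 lost its call in 10, Col28a1 in 9 and Col22a1 in 2, Col15a1 lost it with library totals alone and with upper-quartile factors, and Col4a2, Col9a2 and Col19a1 with library totals alone. The cause was not tested.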

Other observations

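The genes that modify, cross-link, bind and break down collagen were also compared with the mixed gate, in comparisons that share its libraries. Of the 66 tested, 2 were higher in mSC than in allSC and 11 were lower, where 8.76% and 8.80% of all genes were (edgeR). The higher ones were Fkbp14, an isomerase of the endoplasmic reticulum, with a log2 fold change of 0.70 (adjusted p = 4.7e-04), and the procollagen protease gene Tll1 with 0.70 (adjusted p = 0.0034). The most negative were Adamts2 (-2.31), Itga1 (-2.22), P4ha2 (-2.02), Mmp14 (-1.96) and Loxl2 (-1.84). In nmSC, 7 were higher than in allSC and 4 were lower, where 2.82% and 7.55% of all genes were. The 7 higher had log2 fold changes of 0.49 (Timp2) to 0.72 (Itga1), and the 4 lower were Tll1 (-1.10), Fkbp14 (-0.74), Tgm2 (-0.70) and Lox (-0.64).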
